A study of Bos taurus with 28 samples.

Results

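The proteasome genes described here are those whose symbol starts with PSM, followed by a class letter from A to G and a number. Of 8073 genes named on the arrays, 40 have such a symbol, and 39 of these had enough values to be tested among 6958 genes. They encode the 20S core (PSMA and PSMB), the 19S regulatory particle (PSMC and PSMD), the activators (PSME), the regulator PSMF1 and the assembly chaperones (PSMG). Another 8 cattle genes of this kind, PSMA2, PSMA8, PSMB11, PSMC6, PSMD4, PSMD10, PSMD12 and PSME3, have no named probe and were not analysed here.

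Liver RNA from multiparous Holstein dairy cows was examined in early lactation to learn which genes differ between ketosis and health. The healthy group held 7 cows that passed a physical examination on day 4 after calving and had no feed restriction. The ketotic group held 7 such cows, assigned at random, whose feed was cut to 50% of intake from day 5 (day 4 in the sample labels) until clinical ketosis or day 14 at the latest. All cows had calved before and were postpartum, so the groups share that state, and ketosis and reduced feed intake cannot be told apart in this design. Each liver RNA was hybridised to 2 cDNA arrays with the dyes exchanged, against a common reference RNA from a pool of cattle tissues. The 2 arrays of a cow hold the same RNA, so a cow counts once and n is the number of cows.

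The proteasome is the large protease that degrades proteins tagged with ubiquitin in the cytosol and nucleus. Its 20S core is a barrel of stacked rings: alpha subunits form the outer rings and the gate, and beta subunits form the inner rings and carry the catalytic sites. The 19S particle caps the barrel, where non-ATPase subunits bind and deubiquitinate the substrate and a ring of ATPases unfolds it and feeds it in. In cells exposed to interferon, PSMB8, PSMB9 and PSMB10 replace the standard catalytic subunits, and PSME1 and PSME2 form an alternative cap. This immunoproteasome supplies peptides for antigen presentation. In hepatocytes the proteasome shares the turnover of proteins with autophagy.

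All values are log2 ratios of liver over reference, centred on each array's median and averaged over a cow's 2 arrays. They describe one gene across cows, and the levels of different genes are not compared. The direction, liver over reference, is likely rather than stated: it rests on the dyes in the titles, and after turning the arrays with liver in Cy3 the hepatocyte markers lay above 0 on 28 of 28 arrays, at a median of 5.91. The median log2 difference over all 6958 genes, ketotic minus healthy, was -0.18. Spots that gave no usable ratio were more frequent in ketotic cows, at 16.5% ± 4.49 (SD, n = 7) against 11.9% ± 2.80 (SD, n = 7; exact permutation p = 0.0338, two-sided). Healthy cow 7 stood apart from all others. Over the proteasome genes its values correlated with those of other cows at 0.276 to 0.443, while the other cows correlated among themselves at 0.546 to 0.918. Its mean over 16 hepatocyte markers was 3.23, against 5.22 to 6.78 in the other healthy cows, and its mean over 8 stellate cell markers was 0.33, against at most -0.93. Counts are therefore given with and without this cow.

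Proteasome genes had lower ratios in the livers of ketotic cows, across the core, the cap and the activators. Of the 39 tested genes, 21 fell, none rose and 18 did not pass the test (limma, Benjamini-Hochberg adjusted p under 0.05 over all genes). Over all genes tested, 12.4% fell and 0.92% rose. All 39 proteasome genes had a negative difference, against 67.2% of all genes. Their median difference was -0.61, which is a 1.53-fold lower ratio. For 12 of the 39, every ketotic cow lay below every healthy cow, which held for 5.39% of all genes. Without healthy cow 7, 26 of the 39 fell, with a median of -0.62, and the groups did not overlap for 18. The background without that cow was 18.4% of genes lower and 8.59% without overlap. No call was lost there, and PSMA3, PSMA4, PSMA6, PSMB2 and PSMD1 were gained. Without healthy cow 6 the count was 13 of the 39, beside 8.92% of all genes.

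**Figure D1:**
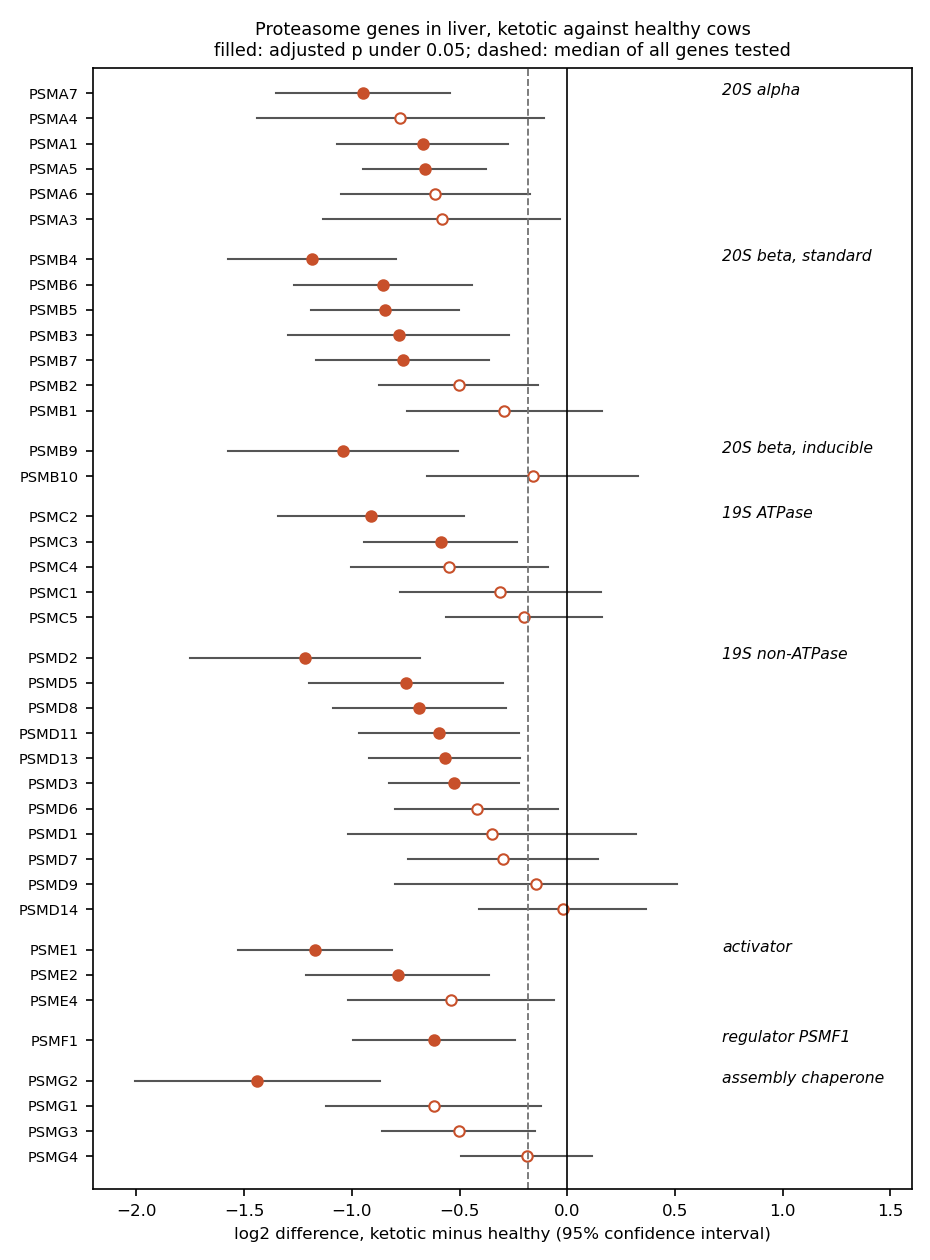
Log2 difference, ketotic minus healthy, of the 39 tested proteasome genes by class, with 95% confidence intervals from limma. Filled points passed at an adjusted p under 0.05, the solid line is 0 and the dashed line is the median of all genes, -0.18. All 39 points lie left of 0, from PSMG2 at -1.44 to PSMD14 at -0.021.

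The cows themselves differed in how far the proteasome genes lay below the healthy mean. In each ketotic cow, between 34 and 39 of its measured proteasome genes were below the healthy mean. The median over those genes was -0.34 in ketotic cow 1, the nearest to the healthy group, and -1.11 in ketotic cow 5, the farthest. Ketotic cow 5 also had the largest share of unusable spots, 25.0%, and the lowest median over all genes tested. With each gene centred over the cows, the per-cow median of the proteasome genes ran from 0.23 to 0.45 in healthy cows and from -0.85 to -0.024 in ketotic cows, so the groups did not overlap. The same median over all genes ran from 0.066 to 0.14 and from -0.31 to 0.011, and did not overlap either. With the percentage of such spots as a covariate, 4 proteasome genes passed, PSMA5, PSMB4, PSMB5 and PSME1, out of 168 genes in all. All 39 differences stayed negative, with a median of -0.51, or -0.37 relative to all genes (-0.43 without the covariate); what the unusable spots contribute to the other differences was not tested further.

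**Figure D2:**
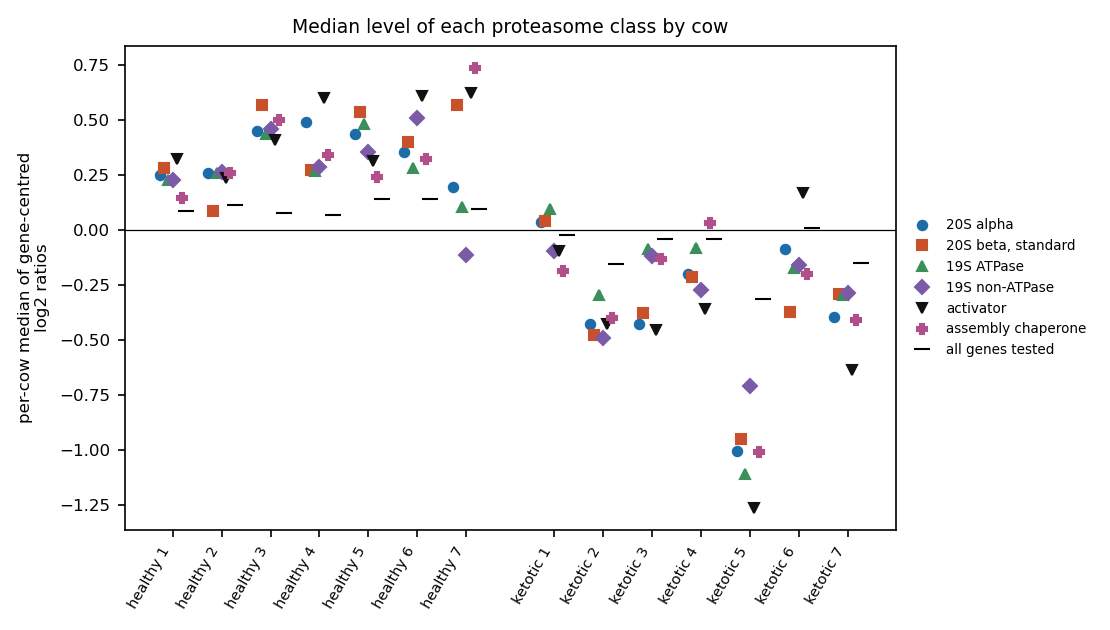
Median of the gene-centred log2 ratios of each proteasome class in each of the 14 cows, with the median over all genes tested as a dash; PSMF1 and the inducible beta subunits are left out. Ketotic cow 5 holds the lowest value of every class drawn, and the non-ATPase median of healthy cow 7 is the only one of that group below 0.

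Among the 20S alpha subunits, which build the outer rings, 3 of 6 fell, with a median of -0.67 and a range from -0.95 to -0.58. PSMA7 (NCBI Gene 505050) had ratios of -0.37 to 0.67 in healthy cows, with a median of -0.12, and of -1.72 to -0.71 in ketotic cows, with a median of -0.89. The groups did not overlap, and the highest value belonged to healthy cow 7. PSMA7 fell 1.93-fold (difference -0.95, SE 0.190, limma adjusted p = 0.00671, n = 7 per group). PSMA5 (NCBI Gene 510155) ran from -0.68 to -0.18 in healthy cows (median -0.43) and from -1.23 to -0.88 in 6 ketotic cows (median -1.18), without overlap. It fell 1.58-fold (difference -0.66, SE 0.133, limma adjusted p = 0.00767). PSMA1 fell too (-0.67, limma adjusted p = 0.0284), but did not pass without healthy cow 5, healthy cow 6 or ketotic cow 7.

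The other 3 alpha subunits, PSMA6 (-0.61), PSMA4 (-0.78) and PSMA3 (-0.58), had differences of the same size and wider spreads, and did not pass. PSMA3, with the largest p of the class, ran from -1.88 to -0.086 in healthy cows (median -0.38) and from -1.65 to -0.73 in ketotic cows (median -1.06). Its lowest healthy value, that of healthy cow 7, lay below all ketotic cows, while the other healthy cows lay at -0.59 or above and did not overlap with them. The difference had an SE of 0.259 and a limma adjusted p of 0.153. Without healthy cow 7 all 6 alpha subunits passed, with a median of -0.76, and without healthy cow 2 PSMA6 passed as well.

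The standard beta subunits, which form the inner rings, held the most calls of the core: 5 of 7 fell, with a median of -0.78. PSMB4 (NCBI Gene 506203), a subunit without catalytic activity, ran from -1.04 to -0.014 in healthy cows (median -0.52) and from -2.38 to -1.46 in ketotic cows (median -1.56). Every ketotic cow was below every healthy cow, and 6 of the 7 ketotic values lay within a narrow band from -1.65 to -1.46. PSMB4 fell 2.28-fold (difference -1.19, SE 0.183, limma adjusted p = 0.00250).

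The 3 subunits that carry the standard catalytic sites all fell. PSMB5 (NCBI Gene 534640), with chymotrypsin-like activity, ran from -0.52 to 0.069 in healthy cows (median -0.047) and from -1.40 to -0.53 in ketotic cows (median -1.09). The groups came within a small gap of each other and did not overlap. PSMB5 fell 1.80-fold (difference -0.85, SE 0.162, limma adjusted p = 0.00559). PSMB6 (NCBI Gene 510069), with caspase-like activity, ran from -0.18 to 0.28 in 6 healthy cows (median -0.055) and from -1.66 to -0.34 in ketotic cows (median -0.83), again without overlap. It fell 1.81-fold (difference -0.85, SE 0.194, limma adjusted p = 0.0126). PSMB7 (NCBI Gene 511207), with trypsin-like activity, ran from -0.50 to 0.33 in healthy cows (median 0.046) and from -1.46 to -0.17 in ketotic cows (median -0.68), so its groups overlapped. It fell 1.70-fold (difference -0.76, SE 0.189, limma adjusted p = 0.0175).

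Of the remaining structural beta subunits, PSMB3 fell by 0.78 on the log2 scale (limma adjusted p = 0.0432), but its call was lost in 8 of the 14 fits that leave out a cow: healthy cow 3, 4 or 5, or ketotic cow 2, 3, 4, 5 or 7. PSMB2 had a difference of -0.50 (limma adjusted p = 0.0685) and passed without healthy cow 7. PSMB1 had one of -0.29 (limma adjusted p = 0.399), with ratios of 0.19 to 1.62 in healthy and of -0.23 to 0.69 in ketotic cows. Its groups overlapped widely.

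Of the 2 inducible beta subunits tested, PSMB9 fell and PSMB10 did not pass, and the 2 were not tested against each other. PSMB9 (NCBI Gene 510593), which takes the place of PSMB6 in the immunoproteasome, ran from -1.27 to 0.33 in healthy cows (median -0.89) and from -2.51 to -1.27 in ketotic cows (median -1.74). The groups met without overlapping, and the highest value was that of healthy cow 7. PSMB9 fell 2.06-fold (difference -1.04, SE 0.251, limma adjusted p = 0.0155), and it passed in all 14 fits with a cow left out. PSMB10 (NCBI Gene 282328), which takes the place of PSMB7, ran from -0.73 to 0.21 in healthy cows (median -0.23) and from -1.39 to 0.25 in ketotic cows (median -0.26). The groups overlapped almost fully, with 1 ketotic cow far below the rest. Its difference was -0.16 (SE 0.231, limma adjusted p = 0.703), and 0.014 without that cow, ketotic cow 2.

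Each inducible gene was set against the standard gene it replaces, as the difference of their 2 ratios per cow, in the 2 pairs with enough values. For PSMB9 with PSMB6 that difference was -1.01 ± 0.355 (SD, n = 6) in healthy and -1.004 ± 0.422 (SD, n = 7) in ketotic cows. Healthy cow 7 is not in this pair, as its 2 arrays did not both hold a PSMB6 value. The groups differed by 0.0012 (SE 0.216; exact permutation p = 0.995, two-sided, adjusted over the 2 pairs 0.995). A p of this size does not show that the 2 genes changed alike. For PSMB10 with PSMB7 it was -0.19 ± 0.579 (SD, n = 7) in healthy and 0.41 ± 0.640 (SD, n = 7) in ketotic cows. The groups differed by 0.60 (SE 0.326; exact permutation p = 0.0909, adjusted 0.182), which did not pass. Without ketotic cow 2 the value was 0.79 (adjusted exact permutation p = 0.0396). With liver in Cy3 alone it was 1.16 (adjusted 0.0350), and with liver in Cy5 alone 0.048 (adjusted 0.906).

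PSMB8 (NCBI Gene 282013), the inducible counterpart of PSMB5, had values in too few cows for the main test. Of its 56 spots, 25 were empty and 2 at the ceiling of the ratios. It had a value from both arrays in 4 healthy cows, at a mean of -0.027, and in 3 ketotic cows, at a mean of 1.74. The ketotic median lay above the healthy one with both dyes, but the groups overlapped and the ranges differed between the dyes. With liver in Cy3 the ratios ran from -2.65 to 0.70 in 6 healthy (median -0.095) and from -1.72 to 4.87 in 4 ketotic cows (median 0.29). With liver in Cy5 they ran from -0.025 to 1.17 in 5 healthy (median 0.40) and from 0.20 to 3.52 in 6 ketotic cows (median 1.62). When 3 cows per group were enough, its difference was 1.76 (limma adjusted p = 0.105). When 1 array was enough for a cow, it was 1.42 (7 cows per group, limma adjusted p = 0.0940). With liver in Cy5 alone it was 1.32 (limma adjusted p = 0.231). The sign was thus opposite to that of the 39 proteasome genes in the main fit, and PSMB8 passed in none of these fits. Of 40 proteasome genes, 39 had a negative difference when 3 cows per group were enough, 38 when 1 array was enough and 36 with liver in Cy5 alone. In the gene order of the cattle reference, PSMB8 and PSMB9 flank TAP1, the peptide transporter, which had a difference of 0.62 (limma adjusted p = 0.0801) and passed without healthy cow 7.

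**Figure D3:**
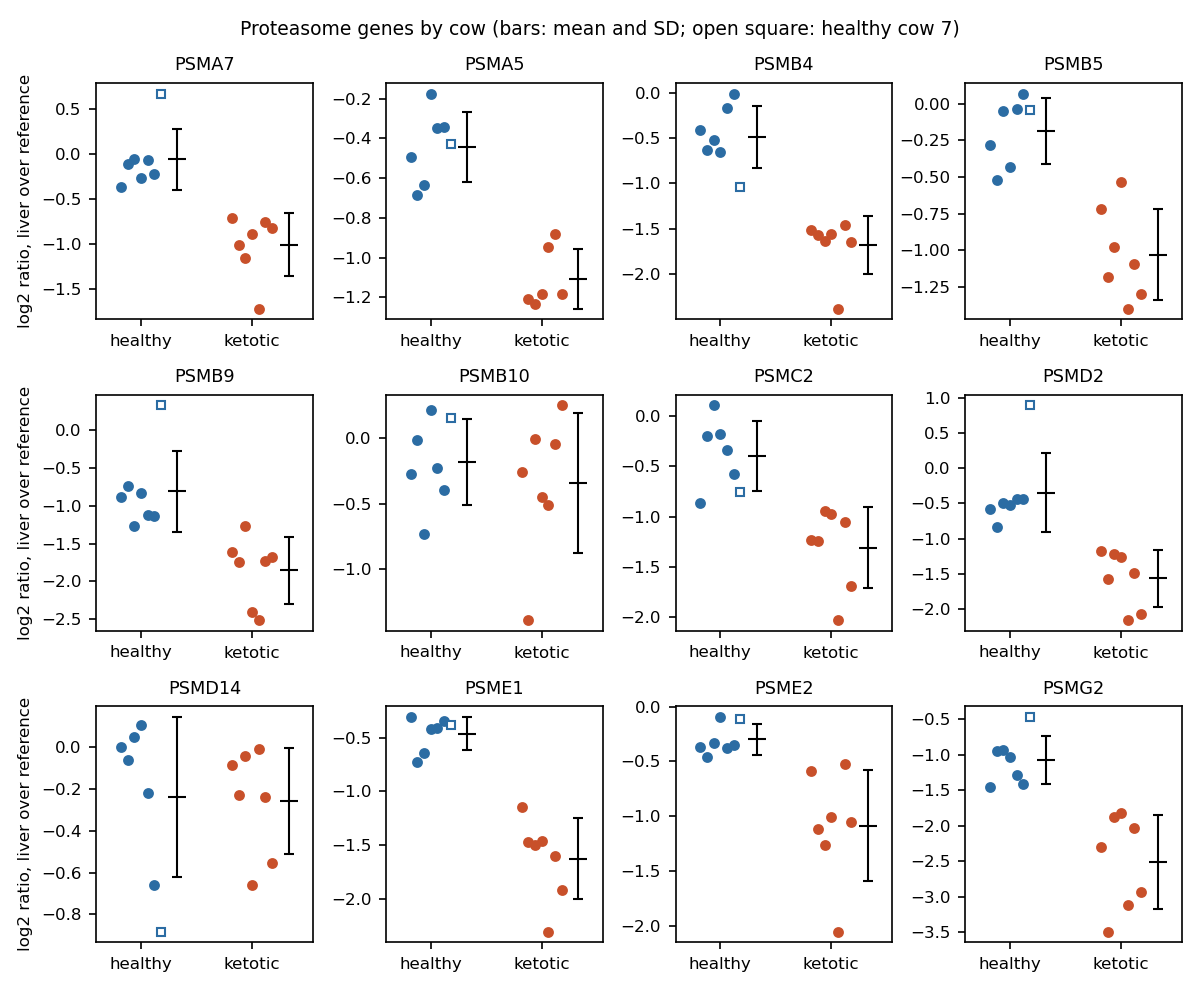
Log2 ratios, liver over reference, of 12 proteasome genes in single cows, 7 per group (6 ketotic cows for PSMA5), with mean and SD as bars and healthy cow 7 as an open square. The groups are apart for PSMA7, PSMA5, PSMB4, PSMB5, PSMB9, PSMC2, PSMD2, PSME1, PSME2 and PSMG2, and overlap for PSMB10 and PSMD14.

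Of the 19S ATPases, the ring that unfolds substrates, 2 of 5 fell, with a median of -0.55. PSMC2 (NCBI Gene 530186) ran from -0.86 to 0.11 in healthy cows (median -0.34) and from -2.03 to -0.94 in ketotic cows (median -1.24), without overlap. It fell 1.88-fold (difference -0.91, SE 0.203, limma adjusted p = 0.0109). PSMC3 (NCBI Gene 508448) ran from -0.67 to -0.36 in healthy cows (median -0.56) and from -1.96 to -0.73 in ketotic cows (median -1.01), also without overlap. It fell 1.50-fold (difference -0.59, SE 0.168, limma adjusted p = 0.0312). Its call was lost in 6 of 14 fits with a cow left out, those without healthy cow 1, 3, 5 or 6 or ketotic cow 2 or 7.

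PSMC4 (-0.55) and PSMC1 (-0.31) did not pass; PSMC4 did without ketotic cow 3. PSMC5 (NCBI Gene 282015) ran from -0.58 to 0.34 in healthy cows (median 0.015) and from -0.71 to 0.14 in ketotic cows (median -0.18). The groups overlapped over most of their range, and the difference was -0.20 (SE 0.170, limma adjusted p = 0.475). With liver in Cy3 alone PSMC5 fell by 0.69 (limma adjusted p = 0.0190), and with liver in Cy5 alone its difference was 0.29 (limma adjusted p = 0.662).

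Of the 19S non-ATPase (PSMD) genes 6 of 11 fell, with a median of -0.52, and the differences reached from -1.22 to -0.021. PSMD2 (NCBI Gene 539784), a large scaffold subunit of the base that binds ubiquitin-like domains, ran from -0.83 to 0.89 in healthy cows (median -0.50) and from -2.16 to -1.18 in ketotic cows (median -1.48). The groups did not overlap, and healthy cow 7 was again far above the rest. PSMD2 fell 2.33-fold (difference -1.22, SE 0.251, limma adjusted p = 0.00776). PSMD3 (NCBI Gene 504937), a subunit of the lid, ran from 0.015 to 0.49 in healthy cows (median 0.25) and from -0.70 to 0.14 in ketotic cows (median -0.27), with a small overlap. It fell 1.44-fold (difference -0.52, SE 0.142, limma adjusted p = 0.0252), but did not pass without healthy cow 6.

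The other 4 non-ATPase genes that fell were PSMD5, an assembly chaperone of the base (-0.75), and the lid subunits PSMD8 (-0.69), PSMD11 (-0.60) and PSMD13 (-0.57). Their limma adjusted p ran from 0.0275 to 0.0354, and each was lost in 5 to 9 of the 14 fits with a cow left out. Without healthy cow 6 only 1 of the 11 non-ATPase genes passed, PSMD2, and without healthy cow 7 there were 7. The differences of PSMD6 (-0.42), PSMD1 (-0.35), PSMD7 (-0.30) and PSMD9 (-0.15) did not pass; PSMD6 did without ketotic cow 6, and PSMD1 without healthy cow 7.

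PSMD14, the deubiquitinase of the lid, was the tested proteasome gene nearest to 0. PSMD14 (NCBI Gene 535683) ran from -0.88 to 0.11 in healthy cows (median -0.062) and from -0.66 to -0.0080 in ketotic cows (median -0.23). The ketotic range lay inside the healthy range. The difference was -0.021 (SE 0.182, limma adjusted p = 0.957), with a 95% confidence interval from -0.41 to 0.37. Its sign was positive under 3 other scalings of the arrays. Split by position in the cap, 3 of 7 base genes fell with a median of -0.55, and 4 of 7 lid genes with a median of -0.52. The whole cap is taken here as all PSMC and PSMD genes, with PSMD5 and PSMD9, which are counted neither as base nor as lid. Of these, 8 of 16 fell with a median of -0.54, and over the whole core 9 of 15 fell with a median of -0.76. Without healthy cow 6 the cap count was 2, and with each cow left out the core count ran from 7 to 13, the highest without healthy cow 7. No test between core and cap was made.

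The activators PSME1 and PSME2, which form the alternative cap, both fell. PSME1 (NCBI Gene 510041) had the smallest p of all proteasome genes. It ran from -0.72 to -0.30 in healthy cows (median -0.41) and from -2.31 to -1.14 in ketotic cows (median -1.50). The groups did not overlap, and healthy cow 7, at -0.38, lay among the other healthy cows. PSME1 fell 2.25-fold (difference -1.17, SE 0.168, limma adjusted p = 0.00241). PSME2 (NCBI Gene 509857) ran from -0.46 to -0.093 in healthy cows (median -0.35) and from -2.05 to -0.52 in ketotic cows (median -1.05), without overlap. It fell 1.73-fold (difference -0.79, SE 0.200, limma adjusted p = 0.0196). In the gene order of the cattle reference the pair lies with EMC9 alone between them.

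PSME4 (NCBI Gene 528142), which caps the proteasome in the nucleus and acts on histones, ran from -0.51 to 0.43 in 6 healthy cows (median -0.095) and from -0.98 to 0.18 in ketotic cows (median -0.70). The groups overlapped, and the difference was -0.54 (SE 0.224, limma adjusted p = 0.129). It passed without ketotic cow 6. PSME4 differed by dye, at 0.073 with liver in Cy3 alone and -0.85 with liver in Cy5 alone, although neither passed.

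PSMF1 (NCBI Gene 617807), an inhibitor of the core in vitro, ran from 0.68 to 1.58 in healthy cows (median 1.04) and from -0.076 to 0.77 in ketotic cows (median 0.38), with a small overlap. It fell 1.53-fold (difference -0.62, SE 0.176, limma adjusted p = 0.0314). The call was lost in 6 of 14 fits with a cow left out, those without healthy cow 4, 5 or 6 or ketotic cow 2, 5 or 7.

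Of the 4 assembly chaperones, which build the alpha ring, 1 fell, and it had the largest difference of all proteasome genes. PSMG2 (NCBI Gene 533993) ran from -1.45 to -0.46 in healthy cows (median -1.04) and from -3.50 to -1.83 in ketotic cows (median -2.31). The groups did not overlap, and 3 ketotic cows lay at -2.94 or below. PSMG2 fell 2.71-fold (difference -1.44, SE 0.268, limma adjusted p = 0.00496). PSMG1, its partner in a heterodimer, had a difference of -0.62 (limma adjusted p = 0.0950), and PSMG3 one of -0.50 (limma adjusted p = 0.0578; it passed without ketotic cow 3 or 4). PSMG4 (NCBI Gene 789063), the partner of PSMG3, ran from 0.47 to 1.21 in healthy cows (median 0.88) and from 0.45 to 0.94 in ketotic cows (median 0.55). Its difference was -0.19 (SE 0.144, limma adjusted p = 0.423), a mean over 2 probes that disagreed, at -0.56 (limma adjusted p = 0.122) and 0.18 (limma adjusted p = 0.478).

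Over the 21 genes that fell, 12 passed in all 14 fits with a cow left out: PSMA5, PSMA7, PSMB4, PSMB5, PSMB6, PSMB7, PSMB9, PSMC2, PSMD2, PSME1, PSME2 and PSMG2. All but PSMB7 are also genes whose groups did not overlap. Genes outside the set passed in all 14 fits too, among them B2M, CALR, VCP and UBA1. The share of all genes that did so was not counted. The spread of the proteasome genes between cows, a median within-group SD of 0.345, was smaller than the 0.423 over all genes. So was the median difference between the 2 arrays of a cow, 0.385 against 0.464.

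The dye orientations gave the same direction for most members and unequal calls. With liver in Cy3 alone, 23 of 39 proteasome genes fell, with a median of -0.71; 17 of them are among the 21 above. Over all genes with that dye, 8.73% fell, and the median was -0.17. With liver in Cy5 alone none passed in limma at an adjusted p under 0.05, where 22 had an unadjusted p under 0.05, and the median was -0.59. The smallest adjusted p with Cy5 alone was 0.0612, and only 12 of 7633 genes passed there at all. In each orientation 36 of 39 differences were negative. The difference was more negative with liver in Cy3 for 28 of the 39. A test of the difference between orientations per gene passed for none of the 39, with a smallest adjusted p of 0.848, and for none of 6958 genes; 4 of the 39, PSMC5, PSMG3, PSME4 and PSMB10, had an unadjusted p under 0.05, as did 5.46% of all genes.

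**Figure D4:**
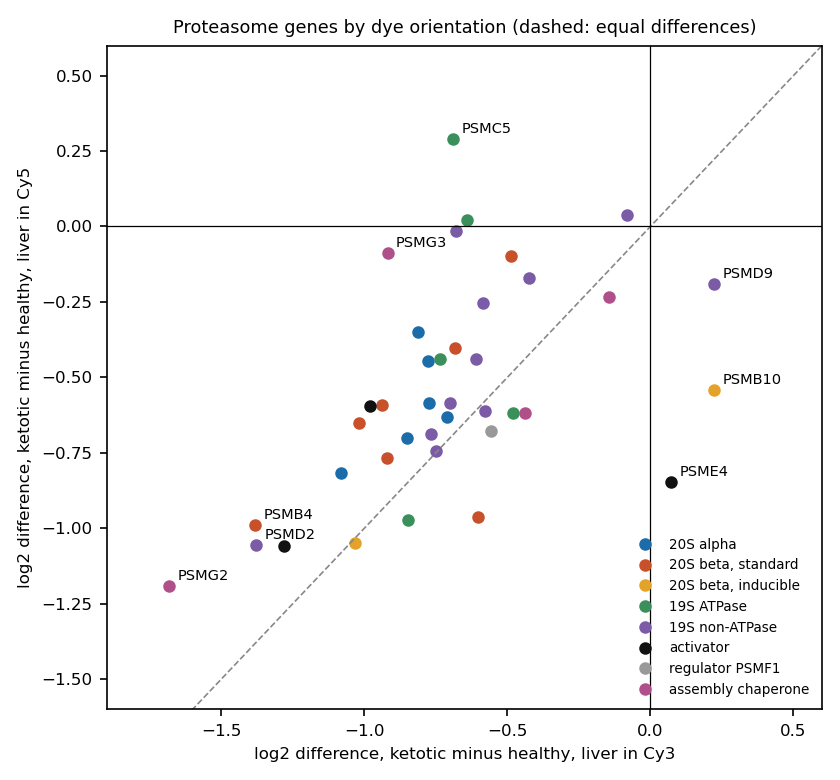
Log2 difference, ketotic minus healthy, of each proteasome gene with liver in Cy3 (horizontal axis) and with liver in Cy5 (vertical axis), coloured by class; the dashed line marks equal differences. Most points lie in the lower left, where both are negative, and 28 of 39 lie on the side of a more negative difference in Cy3.

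Genes that work with the proteasome were read from the same fit by list. Over all genes tested, 12.4% fell, and 18.4% did without healthy cow 7. Of 8 tested proteasome partners 3 fell, with a median of -0.48: PITHD1 (-0.92, limma adjusted p = 0.00597), the deubiquitinase USP14 (-0.58, 0.0261) and POMP, the maturation factor of the core (-0.75, 0.0273). POMP was lost without healthy cow 3, ketotic cow 5 or ketotic cow 7. UBA1, which activates ubiquitin, fell (-0.71, limma adjusted p = 0.0242), and UBA6 did not pass (-0.30). Among 8 shuttles and cofactors of VCP, with a median of -0.33, only VCP itself fell (-0.79, limma adjusted p = 0.0175), a share near that of all genes. Without healthy cow 7, 3 of these 8 fell. None of 5 regulators of proteasome genes passed in limma at an adjusted p under 0.05, and 1 did unadjusted; NFE2L1, the factor that drives proteasome gene transcription when the proteasome is inhibited, had a difference of -0.41 (adjusted p = 0.0760) and passed without ketotic cow 6, and STAT3 passed without healthy cow 7.

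Of 15 genes of class I antigen processing and interferon signalling 3 fell, beside 12.4% of all genes, with a median of -0.17, close to that of all genes. They were B2M (-0.97, limma adjusted p = 0.0110), CALR (-0.84, 0.0126) and the peptidase NPEPPS (-0.61, 0.0369), the last lost in 7 of 14 fits with a cow left out. Without healthy cow 7, 5 fell, beside 18.4% of all genes, and 1, TAP1, rose. Among 9 macrophage markers 4 fell, AIF1, CD74, CTSS and LAPTM5, with a list median of -0.80. AIF1 was lost in 7 of 14 fits with a cow left out. The mean ratio of the 9 macrophage markers per cow was 0.83 to 2.98 in healthy and 0.50 to 1.96 in ketotic cows. The lowest healthy value is that of healthy cow 7, and the other healthy cows lay at 1.95 or above, so that the groups barely met. Of 6 lymphocyte markers GNLY and PTPRC fell and CD79B rose, the first 2 lost in 7 of 14 such fits each and CD79B in 2, and the mean ratio was -0.69 to 0.045 against -0.75 to -0.26. Of 16 hepatocyte markers ALB and APOA1 rose, with a list median of 0.57. The mean ratio of the 16 per cow was 3.23 to 6.78 in healthy and 5.44 to 6.46 in ketotic cows. The lowest healthy value is that of healthy cow 7. The ketotic range lay inside that of the other healthy cows, 5.22 to 6.78. With arrays scaled to one spread the signs turned, to -0.073 for ALB, -0.027 for APOA1 and -0.66 for the list median. Of 4 bile duct markers KRT8 fell (median -0.50), and of 3 neutrophil markers MMP9 rose (median -0.14), a call lost in 5 of the 9 fits that could test it. No marker passed in limma at an adjusted p under 0.05 among 8 of stellate cells (median -0.91, 2 at an unadjusted p under 0.05), 6 of endothelial cells (median -0.088, 1 unadjusted) or 2 of red blood cells (median 0.44, 1 unadjusted). The hepatocyte APOB, the macrophage C1QB, DCN of the stellate cells and EPCAM of the bile duct passed without healthy cow 7, all as lower. The lymphocyte CD4 (higher) passed without healthy cow 6 or ketotic cow 2, and the endothelial VWF (higher) without healthy cow 4. The difference of APOB ran from -1.44 to 0.13 over the 9 fits that could test it. The part of these cells in the differences of the proteasome genes was not tested, and fewer cells of a type cannot be told apart from less RNA per cell in bulk liver.

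The COP9 signalosome, a complex related in structure to the 19S lid, had 1 of 8 genes lower, a share near the 12.4% of all genes, GPS1 (-0.61, limma adjusted p = 0.0295; lost without healthy cow 6, ketotic cow 2 or ketotic cow 5). Without healthy cow 7, 3 of 8 fell, with COPS3 (limma adjusted p = 0.0427) and COPS5 (0.0491) added. All 8 had negative differences, with a median of -0.45. Of 18 autophagy genes 3 fell, beside 12.4% of all genes, with a list median of -0.21. They were MAP1LC3B (-1.18, limma adjusted p = 0.00383), GABARAP (-0.66, 0.00571) and ATG12 (-0.73, 0.0292). ATG12 was lost in 6 of 14 fits with a cow left out. Without healthy cow 7, 4 of the 18 fell, beside 18.4% of all genes. Among 11 calpains and other cytosolic proteases NPEPPS alone fell, a share below that of all genes, and the median was -0.32. Without healthy cow 7, 2 of the 11 fell, IDE as well (limma adjusted p = 0.0355). Beside the 67.2% of all genes with a negative difference, 12 of the 18 autophagy genes and 8 of the 11 proteases had one.

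**Figure D5:**
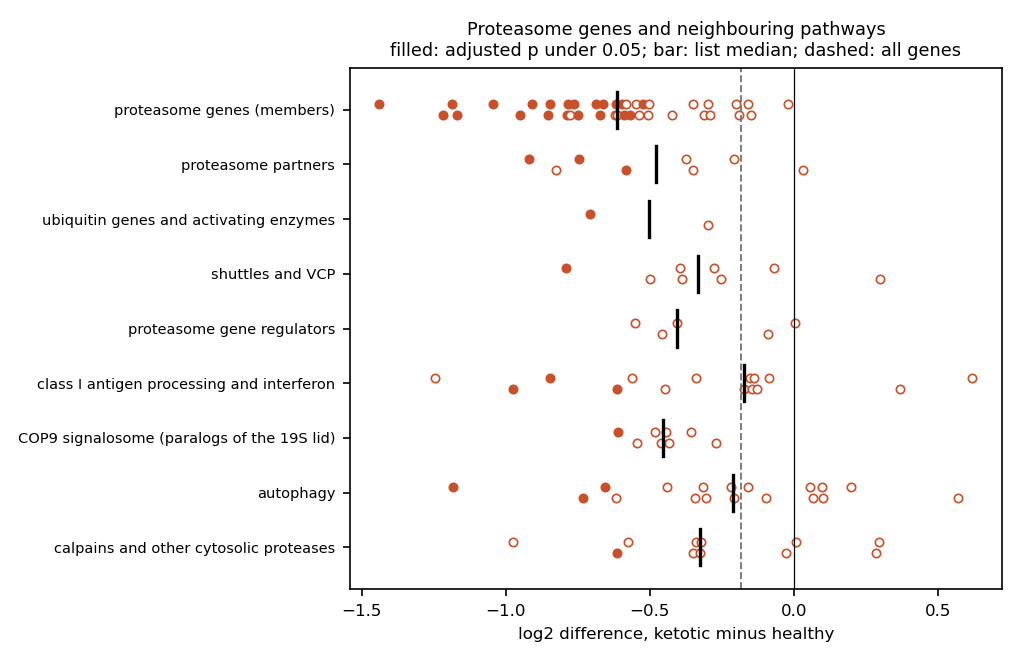
Log2 differences, ketotic minus healthy, of the proteasome genes and of 8 lists of genes that act beside them, 1 point per gene, filled at an adjusted p under 0.05. Bars are list medians and the dashed line is the median of all genes, -0.18; the proteasome genes have the lowest median, -0.61, and class I antigen processing the highest, -0.17.

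The genes outside this set whose ratios followed the per-cow median of the proteasome genes most closely, within groups, over 14 cows and 5209 genes, were HIKESHI (Pearson r 0.933), NUP35 (0.924), NDUFA6 (0.919), IMMT (0.917) and APEX2 (0.909). The points share arrays and array centring, and the values are a description. APEX2 had a difference of -0.20 that did not pass (limma adjusted p = 0.729), while the other 4 fell by 0.93 to 1.32, NUP35 losing its call in 7 of 14 fits with a cow left out.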

How the data were processed

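Gene expression was measured on 28 two-channel cDNA arrays from 14 cows. Per spot, the deposited files hold 1 log2 ratio of the channels; how the authors normalised it was not given in the sources used here. Scanner intensities were not used. The sign was turned on arrays whose liver RNA carried Cy3; the label fields of 1 ketotic array name Cy5 for both channels, and its title was followed. Values at the ceiling of 16.61 (6245) and empty cells (103458) were read as missing. Each array was centred on its median, because deposited array medians ran from -1.05 to 2.16. The 27648 spots, averaged over adjacent pairs, gave 13824 probes, more than the elements named in the design text; the gap was not resolved. The fit used a cow's value where both arrays had one, and genes with values in at least 5 cows per group; probes of a gene were averaged after centring.

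Names came from the platform annotation of 2007, updated with the RefSeq table of ARS-UCD2.0; the array's build is not named, so no coordinates are given, and no sequence is printed. Groups were compared with limma 3.58.1 in R 4.3.3 (lmFit, eBayes, two-sided, Benjamini-Hochberg over all genes, threshold 0.05). The fit was tested on simulated data. Paralog pairs used an exact permutation test over cows; the smallest possible p was 0.00117 for PSMB9 with PSMB6 and 0.000583 for PSMB10 with PSMB7. Pairs with PSMB8 or PSME3 were not run. Figures were drawn with matplotlib 3.10.9. Full values are given for the 2 passing genes with the smallest p and the gene with the largest p of each class, and for the catalytic and inducible beta subunits, PSME1, PSME2 and PSMF1. Lists name up to 3 genes by smallest p, and genes named beyond this were chosen after their values were seen. Members and lists were chosen with earlier results of these data known. Alternatives covered scaling, dye, missing values, weights, variance model, covariate, probe choice and each cow left out. The labels give no batch, and the number of cows, 7 per group, limits the precision.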

Additional observations from a re-analysis of the deposited data

Results flagged for a closer look

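Each proteasome gene was examined for a single cow with an extreme value within its group of 7. This was seen in 16 of 78 gene and group combinations. About 1 in 20, or 3.9, would arise by chance, and a cow's values are linked. No such share over all genes is given here, so the count is not shown to be particular to the proteasome genes. Healthy cow 7 accounted for 10 and ketotic cow 5 for the rest. Healthy cow 7 lay above the other healthy cows for PSMA6 (1.30, nearest other 0.46), PSMA7 (0.67, nearest -0.056), PSMB1 (1.62, nearest 0.57), PSMB9 (0.33, nearest -0.74) and PSMD2 (0.89, nearest -0.44). It lay below them for PSMA3 (-1.88, nearest -0.59), PSMA4 (-1.40, nearest -0.41), PSMC5 (-0.58, nearest -0.029), PSMD1 (-2.26, nearest -0.34) and PSMD11 (-0.30, nearest 0.30). Ketotic cow 5 lay below the other ketotic cows for PSMA4 (-2.68, nearest -1.05), PSMB2 (-1.39, nearest -0.79), PSMB4 (-2.38, nearest -1.65), PSMC1 (-1.82, nearest -1.11), PSMC3 (-1.96, nearest -1.12) and PSMD7 (-1.22, nearest -0.60). Over 33 proteasome genes measured in healthy cow 7, it was the lowest of the healthy cows for 13 and the highest for 10.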

How the results depend on the processing

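The median difference of the proteasome genes was negative under all alternatives run. Of 39 genes, 12 fell with arrays centred on probes measured on all arrays, 12 with one spread, 0 with liver in Cy5 alone (22 at an unadjusted p under 0.05 in limma), 4 with the covariate of unusable spots and 32 as deposited, where the median was -1.01 (all genes -0.58). As deposited, class medians were -1.08 for alpha, -1.18 for beta, -0.95 for ATPase, -0.92 for non-ATPase, -1.19 for activator and -0.98 for chaperone genes. Relative to all genes, the median of the proteasome genes was -0.43 to -0.32 under 5 scalings. With each cow left out, 13 to 26 fell, and 652 to 1368 of all genes passed. Over all genes 929 passed: 1409 with array weights, 616 with common probes (493 lower, 123 higher), 12 with Cy5 alone, 550 with one spread, 562 with quantile normalisation, 168 with the covariate and 2477 as deposited. Among the genes given with full values, signs turned for PSMB10 with Cy3 (0.22) and without ketotic cow 2 (-0.26 to 0.014 over single cows left out). They also turned for PSMC5 with Cy5 (0.29) and PSME4 with Cy3 (0.073). PSMD14 turned with common probes (0.11), Cy5 (0.039), one spread (0.043) and quantile normalisation (0.038), and without single cows (-0.13 to 0.046). By dye, PSMD9 turned as well with Cy3 (0.22) and PSMC1 with Cy5 (0.021). PSMB9 with PSMB6 was -0.20 with 1 array enough, -0.016 with Cy3, -0.21 with Cy5 and -0.092 to 0.12 without single cows. PSMB10 with PSMB7 was 1.16 with Cy3, and 0.46 to 0.79 without single cows. The causes were not tested. Leaving out dim spots, chosen after seeing the data, gave 20 genes lower. No paired analysis was possible because cow numbers only name cows. Depth of signal over background is unknown here.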
